A study of Mus musculus with 8 samples.

Results

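A set of 10 genes that switch off MAP kinase signalling was followed: the dual-specificity phosphatase genes Dusp1, Dusp2, Dusp4, Dusp5, Dusp6 and Dusp10, the Sprouty genes Spry1 and Spry2, and the Sprouty-related genes Spred1 and Spred2. They were chosen by name and make up 10 of the 18193 genes that had a probe set with a single gene symbol. Each gene was read from its brightest probe set, taking the mean of all 8 arrays, and other probe sets of the same gene served as a check.

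The arrays measured messenger RNA in sorted mouse blood stem and progenitor cells, with 2 arrays in each of 4 groups. All 4 groups were CD45.1+ cells from chimeric mice, that is, cells without the leukemia transgene. In leukemic mice, CD45.1+ hosts carried CD45.2+ marrow of the BCR-ABL x SCL-tTA genotype mixed in equal numbers with CD45.1+ marrow, and in normal mice the CD45.2+ marrow had no BCR-ABL transgene. Taking tetracycline out of the drinking water switched on BCR-ABL, the kinase behind chronic myeloid leukaemia, through SCL-tTA, which is active in stem and progenitor cells. The groups were HSC from leukemic mice, HSC from normal mice, KSL from leukemic mice and KSL from normal mice. Titles of both leukemic KSL samples name a normal and a leukemic mouse, so their group was taken from the disease-state label. HSC means the CD150+ CD48- fraction of KSL cells, KSL means lineage-negative Kit+ Sca-1+ cells, and the KSL gate as labelled does not shut out HSC. For HSC the sort came 4 weeks after tetracycline was removed. Neither the time for KSL nor the age of the mice is stated in the labels. Hosts and transplanted competitor marrow were both CD45.1+, so the gate does not tell their cells apart. The labels do not say that the replicates came from separate animals, so p-values measure only the spread between these samples, which may be technical.

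The sort genes followed the labels. Slamf1, which encodes CD150, averaged 8.35 (leukemic) and 9.13 (normal) in HSC, against 5.62 (leukemic) and 6.41 (normal) in KSL (log2 values, n = 2 each). Cd48 averaged 7.18 and 7.16 in the HSC groups, against 10.3 and 10.4 in the KSL groups. All 13 measured genes of a long-term HSC list were higher in HSC than in KSL without overlap, in leukemic and in normal mice alike. Of all genes, 28.2% in leukemic and 24.2% in normal mice were higher in this way. Replicate arrays correlated across genes at r = 0.957 (HSC, leukemic), 0.965 (HSC, normal), 0.994 (KSL, leukemic) and 0.988 (KSL, normal). Replicate 1 of both normal groups stood apart in sex: Xist, the X-inactivation RNA of female cells, read 5.79 and 3.67 on these, while the other 6 arrays read 11.6 to 12. Sex was thus not matched between leukemic and normal arrays, and its part in the differences was tested only by the alternative fits named beside them.

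As background, receptor kinases and Ras pass signals through Raf and MEK to the kinase ERK, while stress signals run through the sister kinases JNK and p38. Activated ERK induces its own brakes. Dual-specificity phosphatases take the phosphates off both the threonine and the tyrosine of an active MAP kinase, Sprouty proteins act between receptor and Ras, and Spred proteins bring the Ras-inactivating protein neurofibromin to the membrane. Messenger RNA of many of these brakes is short-lived and rises and falls with the signal. BCR-ABL itself signals through Ras and ERK, but the cells measured here lacked it and shared only the marrow with the leukemia. In bulk RNA, fewer cells of a type and less RNA per cell cannot be told apart.

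The promoter windows of Dusp1, Dusp5 and Dusp6 are shown because these genes had an unadjusted p under 0.05 between leukemic and normal mice in one cell type at least, as Dusp4 did too. RefSeq windows (build GRCm38.p6, the 250 bases before the annotated start, in the direction of the gene) were matched for 9 of the 10 genes, all but Dusp4. Capitals mark the cyclic AMP response element TGACGTCA (CRE), its half-site TGACG on either strand, and the CArG box, the site of serum response factor. The windows lie at chr17:26508473-26508722 on the minus strand for Dusp1, at chr19:53528895-53529144 on the plus strand for Dusp5 and at chr10:99262981-99263230 on the plus strand for Dusp6.
Dusp1: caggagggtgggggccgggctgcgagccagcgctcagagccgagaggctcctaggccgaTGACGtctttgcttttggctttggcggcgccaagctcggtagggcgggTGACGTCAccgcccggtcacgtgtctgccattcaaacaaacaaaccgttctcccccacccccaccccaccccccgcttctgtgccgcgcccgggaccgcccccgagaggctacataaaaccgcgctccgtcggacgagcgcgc
Dusp5: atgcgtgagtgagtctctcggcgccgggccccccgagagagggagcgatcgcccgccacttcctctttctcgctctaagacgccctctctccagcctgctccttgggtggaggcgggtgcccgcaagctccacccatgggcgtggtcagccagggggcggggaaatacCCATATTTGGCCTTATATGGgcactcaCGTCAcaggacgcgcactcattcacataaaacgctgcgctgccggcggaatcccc
Dusp6: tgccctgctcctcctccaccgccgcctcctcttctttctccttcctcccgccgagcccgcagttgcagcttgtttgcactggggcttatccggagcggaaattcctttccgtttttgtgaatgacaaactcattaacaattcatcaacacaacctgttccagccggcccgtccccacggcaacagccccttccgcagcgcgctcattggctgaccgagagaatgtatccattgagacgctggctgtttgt

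Counting back from -1, the base just before the start, Dusp1 held a CRE at -143 to -136 and a further half-site at -191 to -187. Dusp5 held a pair of adjacent CArG boxes at -82 to -73 and -72 to -63, and a half-site at -55 to -51. The Dusp6 window held none of the motifs searched. Of 32851 RefSeq windows of the same length, searched on both strands, 1.55% held a CRE, 17.8% a half-site and 1.47% a CArG box. Among the 9 matched genes, 1 window held a CRE, 1 held CArG boxes and 3 held a half-site, which the CRE itself contains on both strands, the third being that of Spred2 at -51 to -47. The AP-1 site TGANTCA stood in 6.75% of all windows and in 0 of the 9, and the STAT site TTCNNNGAA in 7.02% and 0 of the 9. The Egr site GCGGGGGCG stood in 2.57% of all windows and in that of Dusp2, and the E-box CACGTG in 6.02% of all windows and in those of Dusp1 and Dusp2. A match describes the letters only.

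Between leukemic and normal mice, 0 of the 10 genes passed limma's test in HSC, where 0.0989% of all genes did, and 0 of 10 in KSL, where 0.044% did, with 3 and 2 at an unadjusted p under 0.05, beside 13.8% and 7.95% of all genes. In HSC, Dusp6 and Dusp4 were higher and Dusp1 was lower on the leukemic arrays without overlap, with log2 differences of 0.72, 0.46 and -0.35, as 16% of all genes were higher and 16.7% lower in this way. In KSL, 7 of the 10 genes had both leukemic arrays below both normal arrays, beside 24.1% of all genes, among them Dusp1 at -0.58 and Dusp5 at -1.14. The gap between the nearest arrays was narrow for Dusp2, Dusp4 and Spred1. Between cell types, Dusp1 and Dusp4 were higher in HSC than in KSL, past the test, in leukemic mice, where 3.13% of all genes were, and in normal mice, where 0.803% were. All values that follow are log2 expression, and ± after a difference is its standard error in limma's fit (2 arrays in each group). The fit takes 1 spread per gene over all 4 groups, so the HSC and KSL differences of a gene share the same ±. It is thus not the spread of the 2 groups compared. Over all genes, the median SD of replicates was 0.208 (leukemic) and 0.196 (normal) in HSC, against 0.0940 and 0.114 in KSL.

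**Figure D1:**
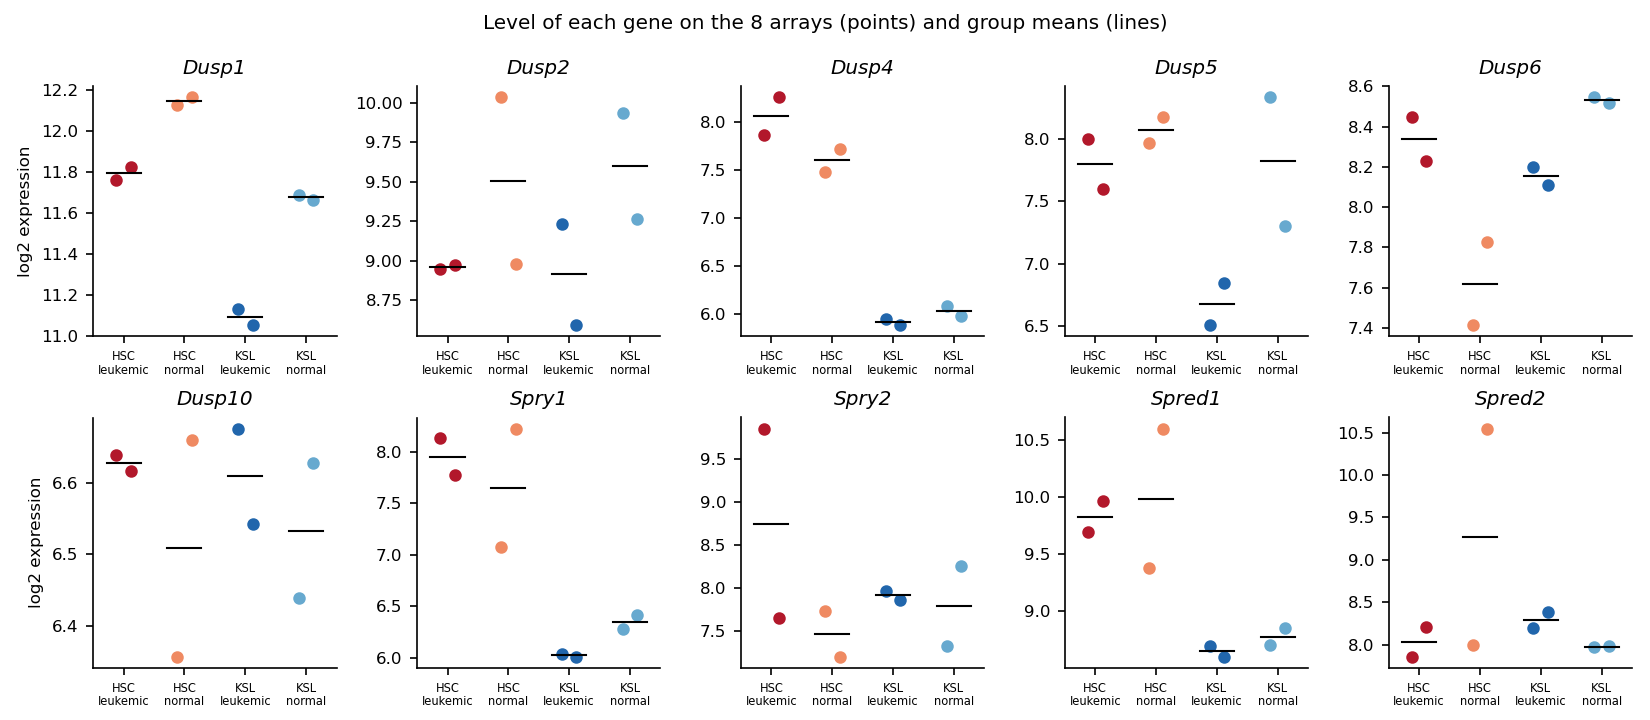
Log2 expression (vertical axis, own scale per panel) of the 10 genes on each of the 8 arrays. Points are arrays, lines are means of 2 arrays, and the groups run from HSC of leukemic mice at the left to KSL of normal mice at the right. Dusp1 and Dusp4 have all 4 HSC arrays above all 4 KSL arrays, and single arrays stand away from their partner for Spry2 (9.85 against 7.65 in HSC of leukemic mice) and Spred2 (7.99 against 10.54 in HSC of normal mice).

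Dusp1 encodes a nuclear phosphatase, induced within minutes of stress or growth signals, that acts on p38, JNK and ERK. Its values were 11.76 and 11.82 (HSC, leukemic), 12.13 and 12.17 (HSC, normal), 11.13 and 11.05 (KSL, leukemic), and 11.69 and 11.67 (KSL, normal). No neighbouring groups overlapped, and the order was HSC normal, HSC leukemic, KSL normal, KSL leukemic. Replicates lay close together, with a residual SD of 0.0390, and 8.25% of all genes had a smaller one. The leukemic-minus-normal difference was -0.35 ± 0.04 in HSC (95% interval -0.47 to -0.23, adjusted p = 0.109) and -0.58 ± 0.04 in KSL (95% interval -0.70 to -0.47, adjusted p = 0.0993), and neither passed limma's test. The KSL difference passed under 1 of 18 alternatives, array weights (adjusted p = 0.0322).

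Dusp1 was 1.62-fold higher in HSC than in KSL of leukemic mice, with a log2 difference of 0.70 ± 0.04 and an adjusted p of 0.00911. In normal mice it was higher by 0.47 ± 0.04 (adjusted p = 0.0258). In leukemic mice 4 of 18 alternatives lost the call: the fit on the 4 arrays compared, which is also the fit without the male-pattern arrays (adjusted p = 0.0672), and the fits without KSL leukemic replicate 1 or 2 (0.0680 and 0.0684). In normal mice 13 of 18 lost it, including the fits without HSC normal replicate 1 or 2 (0.0509 and 0.0702), KSL leukemic replicate 1 or 2 (0.0802 each) and KSL normal replicate 1 or 2 (0.114 and 0.147). The Dusp1 difference itself lay between 0.65 and 0.74 in leukemic mice and between 0.44 and 0.50 in normal mice under all 18 alternatives. Only rescaling the arrays or leaving out arrays of the groups compared could move it.

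Dusp4 encodes a nuclear, inducible phosphatase of ERK, JNK and p38. Its values were 7.87 and 8.26 (HSC, leukemic), 7.48 and 7.73 (HSC, normal), 5.95 and 5.89 (KSL, leukemic), and 6.09 and 5.98 (KSL, normal). The HSC arrays lay far above the KSL arrays, and no neighbouring groups overlapped in the order HSC leukemic, HSC normal, KSL normal, KSL leukemic. Dusp4 was 4.43-fold higher in HSC than in KSL of leukemic mice (log2 difference 2.15 ± 0.16, adjusted p = 0.0113) and 2.97-fold higher in normal mice (1.57 ± 0.16, adjusted p = 0.0287).

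The leukemic-minus-normal difference of Dusp4 was 0.46 ± 0.16 in HSC (unadjusted p = 0.0358, adjusted p = 0.320 by limma) and -0.12 ± 0.16 in KSL (adjusted p = 1), with non-overlapping arrays both times. The Dusp4 difference in HSC was 0.66 without HSC leukemic replicate 1 and 0.27 without HSC leukemic replicate 2. For the HSC-minus-KSL call in leukemic mice, 14 of 18 alternatives kept it. Dusp4 lost it in the fit on the 4 arrays compared (adjusted p = 0.0703) and without KSL leukemic replicate 1 or 2 (0.0948 and 0.0765). In normal mice 8 of 18 kept it. Among those that lost it were the fits without HSC normal replicate 1 or 2, KSL leukemic replicate 1 or 2 and KSL normal replicate 1 or 2. The Dusp4 difference itself stayed between 1.45 and 1.69 in these fits, and leaving out KSL leukemic arrays could not move it.

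Dusp5 encodes a nuclear phosphatase specific for ERK. Its values were 8.0 and 7.60 (HSC, leukemic), 7.96 and 8.18 (HSC, normal), 6.51 and 6.85 (KSL, leukemic), and 8.33 and 7.31 (KSL, normal). KSL of leukemic mice stood below the 3 other groups, which overlapped one another. The difference from KSL of normal mice was -1.14 ± 0.38 (2.20-fold lower, 95% interval -2.15 to -0.13, unadjusted p = 0.0341, adjusted p = 0.576 by limma). It was -0.63 without KSL normal replicate 1 and -1.65 without KSL normal replicate 2. In HSC the leukemic-minus-normal difference was -0.27 ± 0.38 with overlapping arrays. Dusp5 was higher in HSC than in KSL of leukemic mice without overlap (1.12 ± 0.38, adjusted p = 0.183).

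Dusp2 encodes a nuclear phosphatase first known from activated lymphocytes. Its values were 8.95 and 8.97 (HSC, leukemic), 10.03 and 8.98 (HSC, normal), 9.23 and 8.59 (KSL, leukemic), and 9.94 and 9.26 (KSL, normal). The leukemic arrays lay below the normal ones only just in both cell types, the nearest arrays being 8.97 against 8.98 in HSC and 9.23 against 9.26 in KSL. The differences were -0.54 ± 0.46 in HSC (adjusted p = 0.681) and -0.69 ± 0.46 in KSL (adjusted p = 0.925), and HSC and KSL overlapped in leukemic and in normal mice. The Dusp2 difference in HSC was -0.0160 without HSC normal replicate 1 and -1.07 without HSC normal replicate 2. In KSL it ran from -0.35 without KSL normal replicate 1 to -1.02 without KSL normal replicate 2, with -0.37 and -1.01 without KSL leukemic replicate 2 and 1. With a term for the male-pattern arrays it was -0.11 in HSC and -0.25 in KSL.

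Dusp6 encodes the cytoplasmic phosphatase specific for ERK and is a widely used readout of ERK activity. Its values were 8.45 and 8.23 (HSC, leukemic), 7.41 and 7.83 (HSC, normal), 8.20 and 8.11 (KSL, leukemic), and 8.55 and 8.52 (KSL, normal). HSC of normal mice were lowest, KSL of normal mice highest, and no neighbouring groups overlapped. The leukemic-minus-normal difference was 0.72 ± 0.16 in HSC (1.64-fold, 95% interval 0.30 to 1.13, unadjusted p = 0.00731, adjusted p = 0.200) and -0.38 ± 0.16 in KSL (95% interval -0.79 to 0.04, adjusted p = 0.685). The difference between these, 1.09 ± 0.22, had an unadjusted p of 0.00539 and an adjusted p of 0.329 by limma. HSC minus KSL was 0.18 ± 0.16 in leukemic mice (adjusted p = 0.569), against -0.91 ± 0.16 in normal mice (adjusted p = 0.0806). No test of Dusp6 passed, as fitted or under any alternative.

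Dusp10 encodes a phosphatase of JNK and p38 rather than ERK. Its brightest probe set held 6.64 and 6.62 (HSC, leukemic), 6.36 and 6.66 (HSC, normal), 6.68 and 6.54 (KSL, leukemic), and 6.44 and 6.63 (KSL, normal). All groups overlapped, and no difference exceeded 0.12. The other Dusp10 probe set gave another picture, with 6.84 and 6.50 (HSC, leukemic), 6.21 and 6.04 (HSC, normal), 5.73 and 5.79 (KSL, leukemic), and 5.72 and 5.56 (KSL, normal). There HSC minus KSL was 0.91 in leukemic mice (adjusted p = 0.0382 by limma with this probe set standing for the gene) and 0.49 in normal mice (0.191), against 0.02 and -0.02 for the brightest probe set.

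Spry1 encodes a Sprouty protein, an inhibitor of receptor kinase signalling to Ras. Its values were 8.14 and 7.77 (HSC, leukemic), 7.07 and 8.23 (HSC, normal), 6.04 and 6.01 (KSL, leukemic), and 6.28 and 6.41 (KSL, normal). All 4 HSC arrays lay above all 4 KSL arrays, while the HSC groups overlapped each other. HSC minus KSL was 1.93 ± 0.40 in leukemic mice (3.82-fold, adjusted p = 0.0707) and 1.30 ± 0.40 in normal mice (adjusted p = 0.222), and neither passed limma's test. In leukemic mice the call was gained under 5 of 18 alternatives, among them the fits without HSC normal replicate 1 or 2. Those arrays are not in this difference, which stayed at 1.93, so only the test, which uses the spread of all groups, changed. In normal mice the Spry1 call was gained without HSC normal replicate 1 (difference 1.88), while without HSC normal replicate 2 the difference was 0.72. Leukemic minus normal was 0.31 ± 0.40 in HSC and -0.32 ± 0.40 in KSL. The HSC value was -0.27 without HSC normal replicate 1.

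Spry2 encodes another Sprouty inhibitor of Ras signalling. Its values were 9.85 and 7.65 (HSC, leukemic), 7.73 and 7.20 (HSC, normal), 7.97 and 7.85 (KSL, leukemic), and 7.33 and 8.26 (KSL, normal). Replicate 1 of HSC of leukemic mice stood above the other 7 arrays, and all neighbouring groups overlapped. The residual SD was 0.866, and 97.5% of genes had a smaller one. The leukemic-minus-normal difference of Spry2 in HSC was 1.28 ± 0.80, and 0.18 without HSC leukemic replicate 1. The other Spry2 probe set held 8.03 and 7.72 on the leukemic HSC arrays, against 7.49 and 7.51 on the normal ones, a difference of 0.38. In KSL the leukemic-minus-normal difference was 0.12 ± 0.80 for the brightest Spry2 probe set. For the other it was 0.38 ± 0.12, with 7.99 and 8.15 against 7.65 and 7.73, without overlap (adjusted p = 0.589 by limma over all probe sets).

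Spred1 encodes a Spred protein known to bind neurofibromin. Its values were 9.69 and 9.96 (HSC, leukemic), 9.37 and 10.59 (HSC, normal), 8.70 and 8.60 (KSL, leukemic), and 8.70 and 8.85 (KSL, normal). Every HSC array lay above every KSL array. HSC minus KSL was 1.17 ± 0.41 in leukemic mice (adjusted p = 0.192) and 1.21 ± 0.41 in normal mice (adjusted p = 0.265), neither past limma's test. In leukemic mice the Spred1 call was gained without HSC normal replicate 1 or 2. Those arrays are not in the difference in leukemic mice, so only the test, which uses the spread of all groups, changed. In normal mice the Spred1 call was gained without HSC normal replicate 1 (difference 1.82). Without HSC normal replicate 2 the Spred1 difference in normal mice was 0.60 (adjusted p = 0.185), and with the mean of the other probe sets it was 0.30. In leukemic mice, 8 of the 8 Spred1 probe sets were higher in HSC than in KSL, by 0.13 to 1.39, and in normal mice 7 of 8. The dimmest of the 8, with a mean of 3.65, stood at the floor of 3.32 on both leukemic KSL arrays. Arrays of leukemic mice overlapped for the Spred1 probe sets at 0.13 ± 0.44 and 0.22 ± 0.28. Leukemic minus normal had no common direction over the 8 probe sets in HSC, where it ran from -0.40 to 0.74.

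Spred2 encodes the second Spred protein of the set. Its values were 7.86 and 8.20 (HSC, leukemic), 7.99 and 10.54 (HSC, normal), 8.20 and 8.38 (KSL, leukemic), and 7.97 and 7.98 (KSL, normal). A single array, replicate 2 of HSC of normal mice, stood above the other 7 and set both HSC differences. Leukemic minus normal in HSC was -1.24 ± 0.85 (adjusted p = 0.605). It was -2.51 without HSC normal replicate 1 (adjusted p = 0.0460) and 0.04 without HSC normal replicate 2. HSC minus KSL in normal mice was 1.29 ± 0.85 (adjusted p = 0.561), with 2.57 and 0.02 in the same pair of fits (adjusted p = 0.0296 and 1). Of the 5 Spred2 probe sets, 2 had a leukemic-minus-normal difference above 0 in HSC and 3 below, from -1.24 to 0.70. The second brightest held 8.28 and 9.94 on the leukemic HSC arrays, against 7.80 and 9.02 on the normal ones. The third brightest held 7.66 and 7.98 on the leukemic HSC arrays, against 7.16 and 7.14 on the normal ones, without overlap (difference 0.67, unadjusted p = 0.00982, adjusted p = 0.217 by limma over all probe sets).

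**Figure D2:**
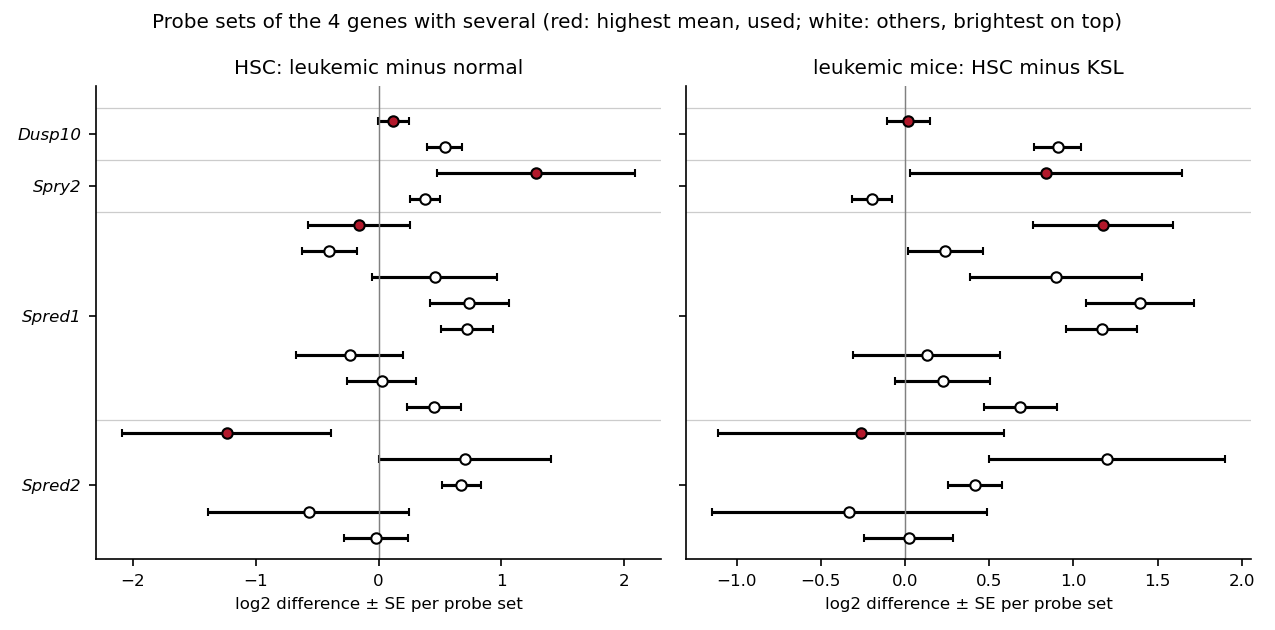
Log2 difference ± SE for each probe set of the 4 genes that had several (Dusp10, Spry2, Spred1, Spred2), leukemic minus normal in HSC at the left and HSC minus KSL in leukemic mice at the right. Red points are the probe sets used, white points the others in falling order of brightness. The 8 Spred1 probe sets all lie above 0 at the right (0.13 to 1.39) and on both sides of 0 at the left (-0.40 to 0.74).

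Over the set in HSC, leukemic against normal, 0 of the 10 genes passed limma's test, where 0.0989% of all genes did. At an unadjusted p under 0.05 there were 3 (Dusp6 and Dusp4 higher, Dusp1 lower), beside 13.8% of all genes. Arrays did not overlap for 2 genes that were higher (Dusp6, Dusp4) and 2 that were lower (Dusp1, Dusp2), where 16% and 16.7% of all genes did the same. The Dusp2 gap was narrow (8.973 against 8.977 on the nearest arrays). The median difference was -0.02, against 0 over all genes, so the set had no common direction in HSC.

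In KSL, leukemic against normal, 0 of the 10 passed limma's test, where 0.044% of all genes did, and 2 had an unadjusted p under 0.05 (Dusp1 and Dusp5, both lower), beside 7.95% of all genes. Arrays did not overlap for 7 genes that were lower (Dusp1, Dusp2, Dusp4, Dusp5, Dusp6, Spry1, Spred1) and 1 that was higher (Spred2), against 24.1% and 20.5% of all genes. Between the nearest leukemic and normal arrays the gap was narrow for Spred1 (8.700 against 8.702), Dusp4 (5.95 against 5.98) and Dusp2 (9.23 against 9.26). The median difference was -0.22, against 0 over all genes.

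The difference between the HSC and the KSL response passed limma's test for 0 of the 10 genes, where 0.0055% of all genes passed. It had an unadjusted p under 0.05 for Dusp6 and for Dusp1 (0.23 ± 0.06, adjusted p = 0.407), beside 9.09% of all genes. Dusp4 (0.58 ± 0.22, adjusted p = 0.558) and Dusp6 were higher in HSC and lower in KSL of leukemic mice without overlap in either, which 3.26% of all genes were. Counting both ways round, 6.08% of all genes were opposed like this. Dusp1 and, only narrowly in each cell type, Dusp2 were lower in both without overlap, which 5.9% of all genes were. The Dusp4 arrays in KSL were likewise only narrowly apart.

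Between cell types, 2 of the 10 genes (Dusp1 and Dusp4) were higher in HSC than in KSL past the test in leukemic mice, where 3.13% of all genes were. The same 2 passed in normal mice, where 0.803% of all genes were higher. Without overlap, 6 genes were higher in HSC of leukemic mice (Dusp1, Dusp4, Dusp5, Dusp6, Spry1, Spred1) and 0 were lower, against 28.2% and 23.2% of all genes. In normal mice 5 were higher (Dusp1, Dusp4, Spry1, Spred1, Spred2) and Dusp6 was lower, against 24.2% and 19.3% of all genes. The gap between nearest arrays was narrow for Dusp6 in leukemic mice (8.23 against 8.20) and Spred2 in normal mice (7.99 against 7.98). Another Spred2 probe set was lower in HSC of normal mice without overlap (-0.31). Dusp1, Dusp4, Spry1 and Spred1 were higher in leukemic and in normal mice, which 13% of all genes were. These comparisons share arrays with the leukemic-to-normal ones and with each other through the fit, so they are not independent of them.

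**Figure D3:**
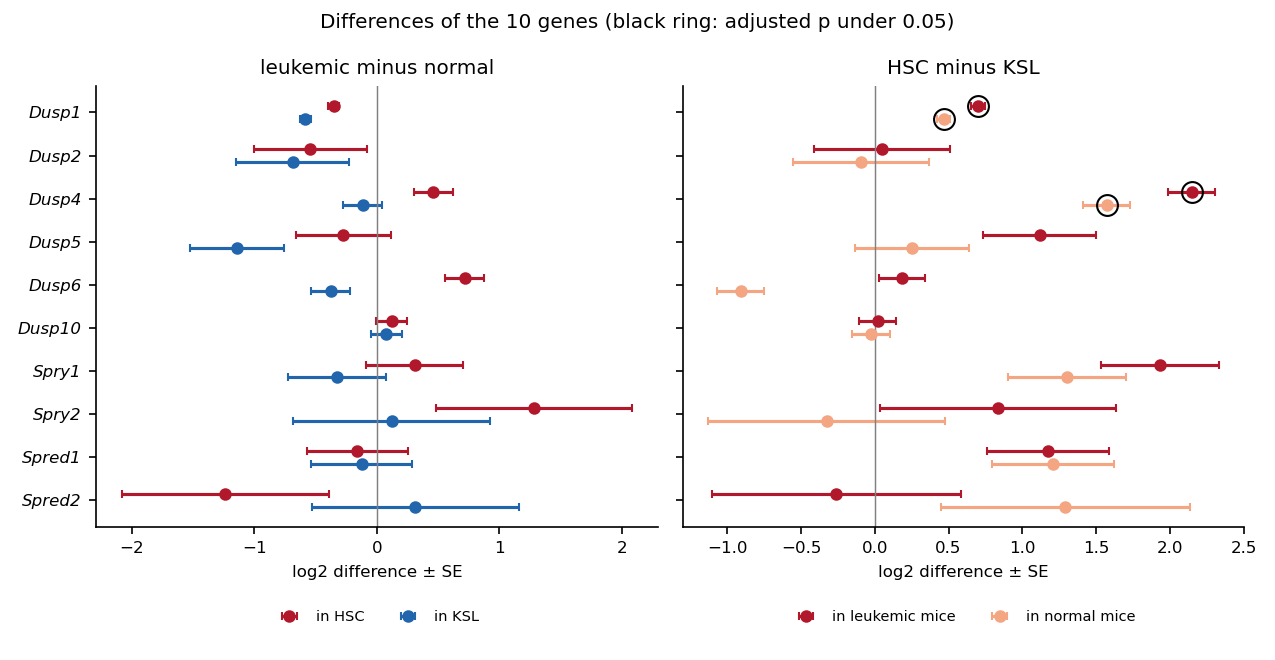
Log2 differences ± SE of the 10 genes: leukemic minus normal in HSC and in KSL at the left, HSC minus KSL in leukemic and in normal mice at the right. A black ring marks an adjusted p under 0.05; only Dusp1 (0.70 and 0.47) and Dusp4 (2.15 and 1.57) carry one, both at the right.

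The rest of the pathway was read from 6 gene lists. Of 14 other dual-specificity phosphatase, Sprouty and Spred genes, 0 passed limma's test between leukemic and normal mice in either cell type, and 0 had an unadjusted p under 0.05. The smallest p-values belonged to Dusp26 (0.39) and Spred3 (1.32) in HSC, and to Dusp14 (-0.25) and Dusp18 (-0.17) in KSL. The atypical phosphatase gene Dusp18 was higher in HSC than in KSL of leukemic mice (0.93 ± 0.16, adjusted p = 0.0479).

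Of 19 measured ERK cascade genes, 0 passed limma's test between leukemic and normal mice, with 2 at an unadjusted p under 0.05 in HSC and 1 in KSL (beside 13.8% and 7.95% of all genes), and the medians were 0.07 and 0.03. Values with the smallest p were 0.21 for the adaptor Grb2 and -0.55 for the MEK gene Map2k2 in HSC, and -0.52 for both the scaffold gene Lamtor3 and the Raf gene Araf in KSL. In normal mice Rasgrp1, a Ras activator, was lower in HSC than in KSL (-1.51 ± 0.19, adjusted p = 0.0432).

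Of 17 measured JNK and p38 cascade genes, 0 passed between leukemic and normal mice, with 3 at an unadjusted p under 0.05 in HSC (13.8% of all genes) and 2 in KSL (7.95%). In HSC the smallest p-values belonged to Map3k7, the kinase TAK1, at -1.13 (adjusted p = 0.0937) and Gadd45g, a stress-induced activator of the pathway, at 1.56 (adjusted p = 0.112). In KSL they belonged to the p38 gene Mapk13 at 0.41 and Map3k4 at -0.38. Between cell types in leukemic mice, Map3k7 was lower in HSC (-1.20 ± 0.13, adjusted p = 0.0190) and Gadd45g was higher (1.60 ± 0.20, adjusted p = 0.0272).

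Of 13 measured genes of ERK transcriptional output, 0 passed between leukemic and normal mice, with 2 at an unadjusted p under 0.05 in each cell type (13.8% of all genes in HSC, 7.95% in KSL). In HSC the cyclin gene Ccnd1 stood at 0.57 (adjusted p = 0.0944) and the survival gene Mcl1 at -0.36, and in KSL at -0.21 and -0.31. Ccnd1 was higher in HSC than in KSL of leukemic mice (1.08 ± 0.07, adjusted p = 0.00839). Among 14 measured receptors upstream of ERK, 0 passed between leukemic and normal mice, with 4 at an unadjusted p under 0.05 in HSC and 1 in KSL, beside the same shares. The cytokine receptor chain gene Csf2rb stood at 1.43 in HSC and 0.91 in KSL, Tnfrsf1a at -0.77 in HSC, and the erythropoietin receptor gene Epor at -1.12 in KSL. Epor was higher in HSC than in KSL of leukemic mice (2.70, adjusted p = 0.0195).

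Immediate-early genes, which like Dusp1 are induced within minutes of a signal, lay mostly below 0 in KSL, leukemic minus normal, and on both sides of 0 in HSC. In KSL 19 of 20 had a difference below 0, as 48.7% of all genes had, and 16 had non-overlapping arrays, against 24.1% of all genes, and the median was -0.66. None of the 20 passed limma's test there (0 of 20, with 10 at an unadjusted p under 0.05, beside 7.95% of all genes), and the smallest p-values belonged to the AP-1 genes Jun (-0.79, adjusted p = 0.215) and Fosb (-1.14, 0.215). In HSC 12 of 20 had a difference above 0 and 8 below, the median was 0.09, and 0 passed limma's test, 1 having an unadjusted p under 0.05, beside 13.8% of all genes. The smallest p-values in HSC belonged to Atf3 (-1.50, adjusted p = 0.207) and Ier2 (-0.38). In leukemic mice 8 of 20 were higher in HSC than in KSL past the test, beside 3.13% of all genes, led by the nuclear receptor gene Nr4a2 (4.11, adjusted p = 0.0106), Jund (1.44, 0.0120), Jun (1.09, 0.0141) and Nr4a1 (3.32, 0.0170). In normal mice 1 passed, Nr4a2 (2.69 ± 0.29, adjusted p = 0.0322).

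**Figure D4:**
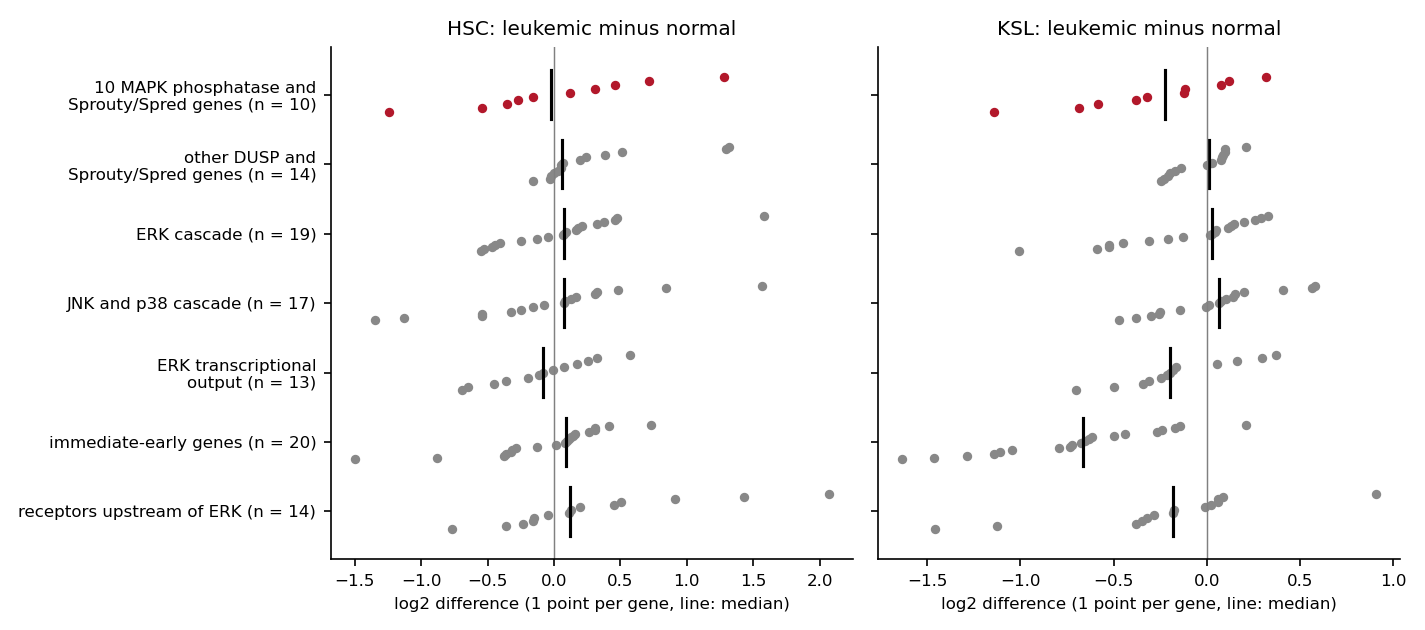
Log2 difference of leukemic minus normal for every measured gene (points) of the 10-gene set and 6 pathway lists, in HSC at the left and in KSL at the right, with the median as a line. The immediate-early genes have a median of 0.09 in HSC and of -0.66 in KSL, and the 10 genes one of -0.02 and -0.22.

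Summed over its 20 genes on the linear scale, the immediate-early list came to 32153 and 32623 (HSC, leukemic), 32783 and 30473 (HSC, normal), 12955 and 12661 (KSL, leukemic), and 23403 and 20931 (KSL, normal). Summed in the same way, the 10 genes came to 7169 and 6740 (HSC, leukemic), 7463 and 9412 (HSC, normal), 4422 and 4075 (KSL, leukemic), and 6042 and 5657 (KSL, normal). In both sums KSL of leukemic mice were lowest and the other groups lay above them without overlap. A linear sum weighs the brightest genes most, so that of the 10 genes followed Dusp1 above all. Its mean over the 8 arrays was 11.68 in log2, against 9.31 for Spred1, the next brightest. The 9412 of HSC normal replicate 2 also holds the single high Spred2 value of 10.54.

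Markers of other cells differed between the same groups. So did 3'-minus-5' probe differences without overlap, in HSC for Gapdh, Tfrc and Actb and in KSL for Tfrc and Actb. The sum of 12 mature neutrophil and monocyte markers was 22720 and 17230 on the leukemic HSC arrays, against 12757 and 2331 on the normal ones. On the leukemic KSL arrays it was 11738 and 8249, against 7444 and 6060 on the normal ones. The sum of 10 granulocyte-monocyte progenitor markers was 5302 and 7834 on the leukemic HSC arrays, against 2085 and 2643 on the normal ones, and in KSL 49550 and 46256, against 35538 and 39872. The sum of 13 long-term HSC markers was 10596 and 9594 on the leukemic HSC arrays, against 12209 and 13214 on the normal ones. Of the 13, 10 lay below 0, 7 of them without overlap, beside 45.8% and 16.7% of all genes, and the median was -0.49. In KSL the sum was 1629 and 1555 on the leukemic arrays, against 3113 and 2859 on the normal ones. There 11 lay below 0, beside 48.7% of all genes, and the median was -0.63. In KSL the sum of 9 mast cell, basophil and eosinophil markers was 8047 and 8038 (leukemic), against 3848 and 5754 (normal). That of 7 megakaryocyte markers was 1134 and 1364, against 2120 and 3628. In HSC, 9 of the 9 mast cell, basophil and eosinophil markers lay above 0, beside 46.3% of all genes. Of these, 5 were higher without overlap, beside 16% of all genes. The megakaryocyte sum in HSC was 9403 and 9379 (leukemic), against 4531 and 8520 (normal). Of 8 B cell markers, 5 were higher and 1 lower without overlap on the leukemic HSC arrays, beside 16% and 16.7% of all genes. Of 8 T and NK cell markers, 5 were lower without overlap on the leukemic KSL arrays, beside 24.1% of all genes. The sums of the 8 were 4674 and 3666 (leukemic), against 3605 and 4361 (normal). The 3'-minus-5' probe difference of Gapdh, a measure of RNA integrity, was 1.19 and 1.03 on the leukemic HSC arrays, against 0.78 and 0.83 on the normal ones, and in KSL 0.73 and 0.75 on the leukemic arrays, against 0.89 and 0.74 on the normal ones, which overlap. The same measure for Tfrc was -0.36 and -0.75 on the leukemic HSC arrays, against -2.04 and -1.74 on the normal ones, and in KSL -1.65 and -1.68, against -1.28 and -1.58. For Actb it went the other way from Gapdh in HSC, with -0.42 and -0.50 on the leukemic arrays, against -0.37 and -0.38 on the normal ones, and in KSL it was -0.53 and -0.53, against -0.48 and -0.48. In each group 1 megakaryocyte marker, 1 B cell marker and 2 T and NK cell markers stood at the floor on both arrays, and 0 of the other lists named here. The part of these values in the differences of the 10 genes was not tested. With a term for the male-pattern arrays, the Dusp6 difference in HSC was 0.62 (adjusted p = 0.324), Dusp4 stood at 0.43 (0.500), and in KSL Dusp1 stood at -0.59 (0.223) and Dusp5 at -0.94 (0.665).

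Genes of like pattern were sought for the 3 members with the widest range of group means, over the 8 arrays and 8787 genes. For Dusp4 they were Med12l (r = 0.989), Tmprss2 (0.988) and Glul (0.987), for Spry1 Hipk2 (0.987), Adgrl1 (0.982) and the phosphatase gene Dusp3 (0.982), and for Dusp5 Rnf157 (0.968), Armcx2 (0.953) and Pde4b (0.952). Pde4b encodes an enzyme that degrades cyclic AMP. The 8 arrays fall into 4 groups, so these values are a description of shared group means and carry no test.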

How the data were processed

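The authors deposited 1 table of log2 values for 45101 probe sets on 8 arrays, normalized with RMA, per the submitters' processing notes, with no version given. Its values stop at a floor of 3.32 in log2 (10.0 on the linear scale). The labels' protocols and the design text name different RNA amplifications, which was not settled here. Gene symbols came with the platform annotation (34945 with 1 symbol, 932 with several, 9160 with none, 64 controls). Checks of symbols and promoter windows came from RefSeq tables.

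No filter was applied, and 0 sample columns were left unused. Limma 3.58.1 (R 4.3.3) was run on the 18193 genes, with lmFit and eBayes, 4 group means and all 8 arrays. P-values are two-sided, with Benjamini-Hochberg adjustment over the whole table, and passing means an adjusted p under 0.05. The number of arrays limits the precision. The code was tested on simulated data. Tables came from pandas 2.3.3 and numpy 2.4.6 under Python 3.11.15, figures from matplotlib 3.10.9.

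All 10 genes are named. Of the other lists, up to 4 genes that passed are named per comparison, or else the 2 with the smallest p. Genes of like pattern needed no value at the floor and an SD of at least 0.3 over the arrays. The members, lists and rules were chosen with earlier results of these data known.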

Additional observations from a re-analysis of the deposited data

Results flagged for a closer look

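The leukemic-minus-normal differences of Dusp6 and Dusp4 ran in opposite directions in HSC and KSL, with arrays that did not overlap in either cell type. In KSL the Dusp4 arrays were only narrowly apart (5.95 leukemic against 5.98 normal on the nearest arrays). For Dusp6 the HSC difference exceeded the KSL difference by 1.09 (95% interval 0.51 to 1.68, adjusted p = 0.329 by limma). For Dusp4 it exceeded it by 0.58 (95% interval -0.01 to 1.16, adjusted p = 0.558). The test of the difference passed for neither gene, and arrays were opposed in this way, in one direction or the other, for 6.08% of all genes.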

How the results depend on the processing

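Of 910 alternative values for the 10 genes, 45 changed sign, none of them in a result that had passed. Another 31 lost a call and 13 gained one. Many of the 910 could not change sign, since their settings changed only the test and left the difference as it was. These were the filters, array weights, eBayes options, the replicate block, fits on only the arrays compared, and fits without an array of a group not compared. The causes of the shifts listed here were not tested, and the 2 arrays per group limit the precision of each value.

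Counts of all genes passing moved as follows. In HSC, leukemic minus normal (18), they were 2 with array weights, and 0 on only the arrays compared, with a term for the male-pattern arrays and without those arrays. In KSL (8) they were 1 with arrays shifted to a common median, 2 without the 40% of genes lowest in mean and 2 without genes at the floor, 125 with array weights, and 0 on only the arrays compared, with the male-pattern term and without those arrays. For the interaction (1) they were 0 with the common median, cyclic loess, no genes at the floor, the male-pattern term and without those arrays, 2 without the lowest 40% and 5 with trend and robust eBayes. For HSC minus KSL in leukemic mice (1067) they were 640 with array weights, 94 on only the arrays compared, 652 with the male-pattern term and 94 without those arrays. In normal mice (328) they were 519 with the common median, 513 without the lowest 40%, 546 without genes at the floor, 0 on only the arrays compared, 168 with the male-pattern term and 4 without those arrays. Leaving out single arrays gave 0 to 257 genes in HSC, 0 to 6 in KSL, 0 to 68 for the interaction, 0 to 1316 for HSC minus KSL in leukemic mice and 20 to 463 in normal mice.

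Of the 10 genes, 0 passed in HSC, leukemic minus normal, and 0 to 1 without single arrays (Spred2). In KSL 1 passed with array weights (Dusp1). For HSC minus KSL in leukemic mice (2), 0 passed on only the arrays compared and without the male-pattern arrays, and 0 to 4 without single arrays. In normal mice (2), 1 passed with the common median, without the lowest 40% and without genes at the floor, 0 on only the arrays compared, with the male-pattern term and without those arrays, and 0 to 3 without single arrays.

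Deviations of same-numbered replicates were at most weakly correlated (-0.04 to 0.09), with the highest value between HSC and KSL of normal mice. The male-pattern arrays of these normal groups bear the same replicate number. A low correlation thus does not exclude a shared origin, and whether the numbers pair the arrays was not settled. With the replicate block, 0 genes passed in HSC, 0 in KSL and 0 for the interaction, 401 for HSC minus KSL in leukemic mice and 19 in normal mice, of which 2 and 0 were among the 10.

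Signs turned for small or uneven differences. With the male-pattern term, leukemic minus normal in HSC was -0.0035 for Dusp10 and -0.0136 for Spry1, and in KSL -0.0472 for Dusp10 and -0.33 for Spred2. Without the male-pattern arrays it was -0.0320 for Dusp10 and -0.27 for Spry1 in HSC, -0.0187 for Dusp10 and -0.35 for Spry2 in KSL, and the interaction of Dusp10 was -0.0133 and HSC minus KSL of Dusp10 in normal mice 0.0325. With the mean of the other probe sets, leukemic minus normal in HSC was 0.25 for Spred1 and 0.20 for Spred2, the interaction was -0.0024 for Spry2, 0.37 for Spred1 and 0.0847 for Spred2, HSC minus KSL was 0.49 for Dusp10 in normal mice, and in leukemic mice -0.19 for Spry2 and 0.33 for Spred2. HSC minus KSL of Dusp10 in leukemic mice was -0.0268 with the common median and -0.0505 with cyclic loess. Both scalings moved the all-gene medians by less than 0.1. Without single arrays the values ran as follows. Leukemic minus normal in HSC ran from -0.0320 to 0.27 for Dusp10, -0.27 to 0.88 for Spry1, -0.77 to 0.45 for Spred1, -2.51 to 0.0377 for Spred2. Leukemic minus normal in KSL ran from -0.0187 to 0.17 for Dusp10, -0.35 to 0.59 for Spry2. The interaction ran from -0.38 to 0.67 for Dusp2, -0.11 to 0.20 for Dusp10, -0.64 to 0.57 for Spred1. HSC minus KSL in normal mice ran from -0.62 to 0.43 for Dusp2, -0.26 to 0.76 for Dusp5, -0.18 to 0.13 for Dusp10, -0.79 to 0.14 for Spry2. HSC minus KSL in leukemic mice ran from -0.27 to 0.37 for Dusp2, -0.0472 to 0.0855 for Dusp10, -0.26 to 1.94 for Spry2.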
